A study of Homo sapiens with 6 samples.

Results

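The 36 genes described here encode the factors, enzymes and carriers through which cells handle oxidants and iron. They were taken by gene symbol from a list in 7 classes, and each symbol matched 1 row among 61806 genes. The classes held 6 regulators, 5 haem and quinone enzymes, 5 genes of the thioredoxin system, 6 peroxiredoxins, 6 other superoxide and peroxide enzymes, 4 enzymes of the NADPH supply and 4 iron genes.

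The data come from poly(A) RNA of HEK293, an established human line of embryonic kidney origin transformed with adenovirus DNA. One group was labelled rs16851030-mutant, made by CRISPR homology-directed repair, and the other was labelled wild type, with 3 biological replicates each and no other agent in the labels. The variant concerns ADORA1, the adenosine A1 receptor gene, and the comparison asked which transcripts differ between edited and unedited cells. The labels do not say if the edited cells are 1 clone, so p-values measure the spread between these 6 libraries, and the edit and a clone's history cannot be told apart. In bulk RNA, fewer cells of a kind and less RNA per cell cannot be told apart either.

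NRF2, encoded by NFE2L2, is a transcription factor that KEAP1 holds in the cytoplasm and hands to a CUL3 ubiquitin ligase. Oxidants and electrophiles modify cysteines of KEAP1, NRF2 then accumulates, pairs with a small MAF protein and binds antioxidant response elements, where BACH1 competes with it as a repressor. Its known targets make glutathione, reduce thioredoxin, supply NADPH, break down haem and store iron. Iron itself acts on messenger RNA: iron regulatory proteins bind hairpins called iron-responsive elements, which lower translation when they lie in a 5′ untranslated region and protect the transcript when they lie in the 3′ untranslated region.

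Promoter sequence was searched for the core of the antioxidant response element, TGACNNNGC, on both strands over the 250 bases before each RefSeq start (build GRCh38.p14). Of the 36 genes, 30 had a window, and FTH1, HMOX1, PRDX1, PRDX6, SOD1 and TXN2 had none in the table used. A match was present for 6 of the 30 (20%), namely KEAP1, PGD, TXNRD1, ME1, GPX2 and MAFF, against 13.2% of all 27305 genes with a window. KEAP1, PGD and TXNRD1 are shown because their transcripts fell in the mutant. TXN, TXNRD2, PRDX3 and SOD2 also fell and had a window without a match. NQO1 and SRXN1 had no match either, and sequence beyond the 250 bases was not searched. Whether a match has a part in a fall was not tested. Capitals mark the match, and a match read on the opposite strand appears as its reverse complement. For KEAP1, short stretches of chromosome 19 on the minus strand are given, at bases -54 to -46 and -31 to -23 from an annotated start.
KEAP1 (chr19:10502807-10502835): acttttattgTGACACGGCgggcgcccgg
KEAP1 (chr19:10502784-10502812): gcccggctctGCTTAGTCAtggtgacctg
PGD (chr1:10398814-10399063, plus strand): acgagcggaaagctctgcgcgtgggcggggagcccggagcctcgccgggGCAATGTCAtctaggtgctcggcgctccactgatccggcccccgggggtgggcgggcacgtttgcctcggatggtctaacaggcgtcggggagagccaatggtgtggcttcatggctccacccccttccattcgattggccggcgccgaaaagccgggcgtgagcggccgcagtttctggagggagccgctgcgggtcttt
TXNRD1 (chr12:104215529-104215778, plus strand): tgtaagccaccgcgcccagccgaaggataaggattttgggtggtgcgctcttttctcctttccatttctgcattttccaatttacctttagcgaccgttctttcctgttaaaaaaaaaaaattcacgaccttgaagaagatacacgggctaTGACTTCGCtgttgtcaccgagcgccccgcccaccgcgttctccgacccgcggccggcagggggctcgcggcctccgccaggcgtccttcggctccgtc
The PGD match lies at bases -201 to -193 and the TXNRD1 match shown at -99 to -91. TXNRD1 has another match, on the opposite strand, at -102 to -94 from a different annotated start, with the stretch below.
TXNRD1 (chr12:104286920-104286948, plus strand): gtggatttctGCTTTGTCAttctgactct
A match describes letters and not binding, and ME1, which has one as well, did not pass the test.

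The iron genes were searched for the iron-responsive hairpin, defined as the loop CAGTGN closed by 5 base pairs (G with T allowed) with an unpaired C before the stem. In GENCODE release 29 (GRCh38), 159 of 19666 protein-coding genes (0.809%) held a match in an untranslated region. FTL and SLC40A1 had 1 match each in the 5′ untranslated region and TFRC had 4 in the 3′ untranslated region. Matches were read out by gene for FTL, SLC40A1 and TFRC only, so whether FTH1 holds one is not given here. The hairpins of FTL and SLC40A1 and 2 of those of TFRC are shown to place them in the 5′ or 3′ region; the loop is in capitals.
FTL (chr19:48965335-48965363, plus strand): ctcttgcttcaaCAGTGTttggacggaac
SLC40A1 (chr2:189580661-189580689, minus strand): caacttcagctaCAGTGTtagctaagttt
TFRC (chr3:196050979-196051007, minus strand): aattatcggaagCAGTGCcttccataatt
TFRC (chr3:196050575-196050603, minus strand): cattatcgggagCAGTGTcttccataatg

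Library totals were 16013460 to 20349609 counts in the mutant and 16867853 to 17938985 in the wild type. ADORA1 had 34 to 48 counts per mutant library and 29 to 44 per wild-type library, which does not check the edit. Of 6 markers that HEK293 cells are known to express, 5 averaged at least 1 FPKM (fragments scaled to exon length and library total) and KRT8 did not. Their summed FPKM was 103 to 106 in the mutant and 159 to 183 in the wild type, most of it VIM. Of 14 markers of other cell types, COL1A1 averaged at least 1 FPKM, PTPRC, CD3E, HBB and INS were at 0 throughout, and the sum was 6.10 to 6.66 in the mutant and 3.65 to 3.88 in the wild type. The part of these differences in the results below was not tested.

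The 36 genes moved in both directions and mostly by little. A gene was tested if it averaged at least 1 FPKM over the 6 libraries and was called at an adjusted p below 0.05. OSGIN1, MAFF and GPX2 fell short of the minimum, and of the 33 tested, 8 were called higher in the mutant, 10 lower and 15 not. Over all 12550 tested genes, 29.3% were called higher, 28.7% lower and 58.1% in either direction, so the share among the 33, 54.5%, was near the background. Mutant and wild-type values did not overlap for 20 of the 33, against 62.9% of all tested genes. The median log2 fold change (mutant over wild type) was 0.01, against -0.001 over all tested genes, and the median size of change was 0.15, against 0.25. HMOX1 was the only one of the 33 with a change of at least 2-fold. The plot of fold changes sets each gene beside the genes that surround it on its chromosome.

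**Figure D1:**
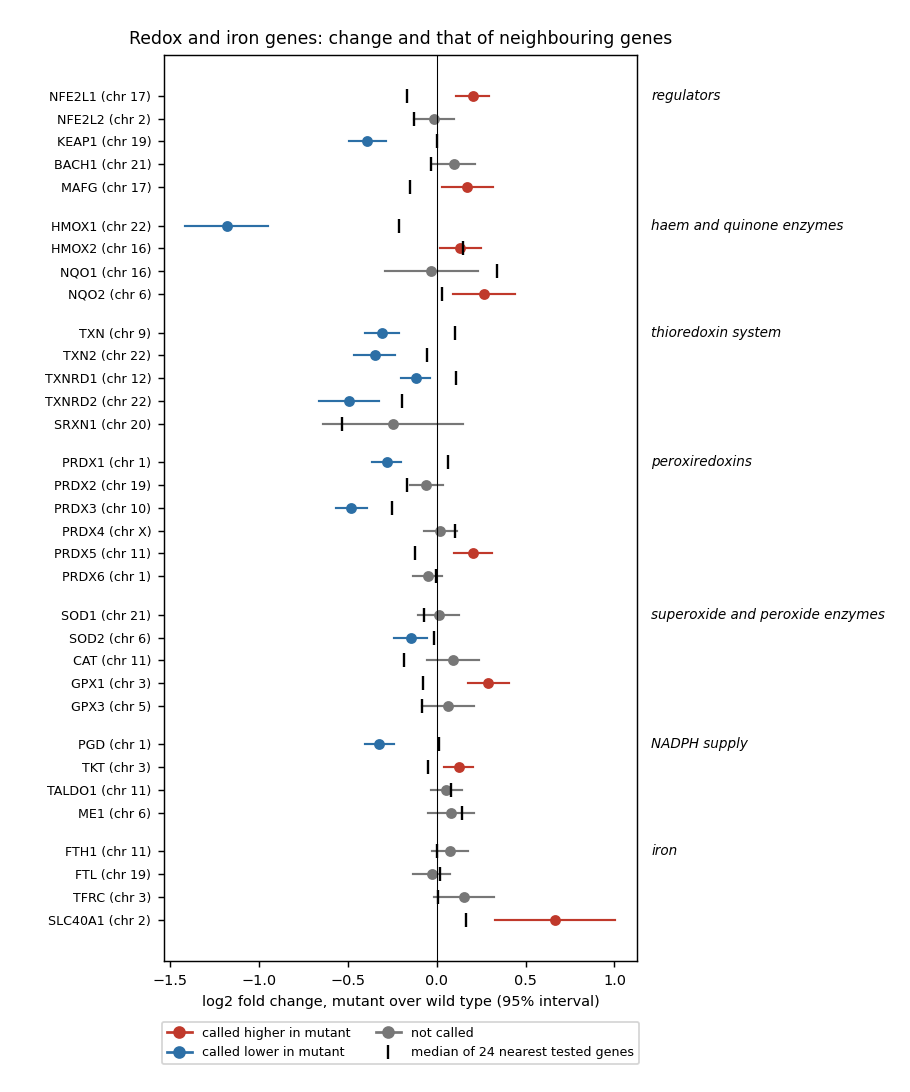
Log2 fold change (mutant over wild type) of the 33 tested genes with 95% intervals, by class, with the median of the 24 nearest tested genes on the chromosome as a tick (21 for NQO2 and 20 for SRXN1, near chromosome ends). HMOX1 stands at -1.18, the thioredoxin genes lie left of 0, and SLC40A1 has the largest rise, 0.67.

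The NRF2 transcript did not differ detectably, whereas that of its inhibitor fell. NFE2L2 (chromosome 2, 177218667 to 177392756, GRCh38) had 4.49, 4.52 and 4.30 FPKM in the mutant and 4.21, 4.42 and 4.52 in the wild type. The groups overlapped, with a log2 fold change of -0.02 (95% interval -0.13 to 0.10, adjusted p = 0.827). KEAP1 (chromosome 19, 10486125 to 10503558) had 17.66, 17.12 and 17.97 FPKM in the mutant and 22.58, 22.43 and 22.56 in the wild type. Every mutant value lay below every wild-type value, and the log2 fold change was -0.39 (SE 0.05, adjusted p = 3.12e-06). The ratio of NFE2L2 to KEAP1 on the FPKM scale was 0.252 ± 0.0125 in the mutant and 0.195 ± 0.0073 in the wild type (SD, n = 3 each).

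BACH1 (chromosome 21), the repressor at antioxidant response elements, had 6.99, 6.81 and 6.88 FPKM in the mutant and 6.20, 6.40 and 6.29 in the wild type. The values did not overlap, but after scaling the log2 fold change of 0.10 (SE 0.06) did not pass (adjusted p = 0.145). NFE2L1 (chromosome 17), an NRF2 relative that controls proteasome genes, was the most abundant of the regulators at 34.0 ± 0.295 FPKM in the mutant and 28.9 ± 1.34 in the wild type (SD, n = 3 each), and it rose by 0.20 (adjusted p = 0.00076). MAFG (chromosome 17), a small MAF partner, rose by 0.17 (SE 0.07, adjusted p = 0.036). That call was lost without mutant replicate 1 (0.11, adjusted p = 0.222) or 3 (adjusted p = 0.0582), and without wild-type replicate 1 (0.0799) or 2 (0.0716). MAFF (chromosome 22), another small MAF, stayed under the minimum with 48 to 63 counts per mutant library and 22 to 49 per wild-type library. In the fit without a minimum its log2 fold change was 0.51 (SE 0.23, adjusted p = 0.0844). NFE2L2 and MAFG overlap other genes in the table, and whether counting used strand was not given in the sources used here, which leaves their values uncertain to that extent. NFE2L2 shares its span with AGPS and HNRNPA3 on the opposite strand, and MAFG with SIRT7 on the same strand.

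HMOX1 showed the largest difference of all 36 genes, while its constitutive relative did not follow it. HMOX1 (chromosome 22, 35380361 to 35394214), the inducible haem oxygenase, had 5.99, 6.29 and 6.17 FPKM in the mutant and 16.56, 12.31 and 11.97 in the wild type. The mutant libraries were close together and far below the wild type, whose replicate 1 stood above the other two. The log2 fold change was -1.18 (SE 0.11, 95% interval -1.42 to -0.95, adjusted p = 8.31e-08), and -1.02 without wild-type replicate 1. HMOX2 (chromosome 16), the constitutive haem oxygenase, had 18.6 ± 0.559 FPKM in the mutant and 16.6 ± 0.268 in the wild type (SD, n = 3 each). Its log2 fold change of 0.13 lay just past the threshold (adjusted p = 0.0448) and the call was lost without any library except wild-type replicate 1 (adjusted p up to 0.159). NMRAL1, which overlaps HMOX2 on the opposite strand, averaged 13.7 FPKM in the mutant and 5.38 in the wild type, and its part in the HMOX2 value was not tested. The FPKM ratio of HMOX1 to HMOX2 was 0.331 ± 0.0088 in the mutant and 0.821 ± 0.140 in the wild type (SD, n = 3 each).

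NQO1 (chromosome 16), a quinone reductase widely read as an NRF2 target, was low and did not differ detectably. It had 2.81, 2.78 and 2.67 FPKM in the mutant and 2.91, 2.47 and 2.86 in the wild type. The log2 fold change was -0.03 (95% interval -0.29 to 0.23, adjusted p = 0.849). Its relative NQO2 (chromosome 6), a quinone reductase with another cosubstrate, averaged 10.99 ± 0.301 FPKM in the mutant and 8.92 ± 0.829 in the wild type (SD, n = 3 each). NQO2 rose by 0.27 (SE 0.08, adjusted p = 0.0108), a call lost without wild-type replicate 2 (0.20, adjusted p = 0.06). OSGIN1 (chromosome 16), an oxidative stress-induced growth inhibitor, had 14 to 17 counts per mutant library and 5 to 20 per wild-type library, which limits what can be seen (log2 fold change 0.27, 95% interval -0.51 to 1.05).

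Of the 5 genes of the thioredoxin system, 4 were called lower, or 3 with library totals as the scaling, where 28.7% of all tested genes were called lower. Thioredoxin passes electrons from NADPH, through thioredoxin reductase, to peroxiredoxins and other proteins. TXN (chromosome 9, 110243810 to 110256507), the cytosolic thioredoxin, had 233.10, 245.91 and 230.07 FPKM in the mutant and 269.23, 289.20 and 300.21 in the wild type. Its log2 fold change was -0.31 (SE 0.05, adjusted p = 1.72e-05), with no overlap between the groups. TXNRD1 (chromosome 12), the cytosolic reductase, averaged 38.8 ± 0.600 FPKM in the mutant and 41.2 ± 0.950 in the wild type (SD, n = 3 each), a smaller fall of 0.12 (adjusted p = 0.0137). The TXNRD1 call was lost without wild-type replicate 3 (adjusted p = 0.0552), with library totals as the scaling (-0.09, adjusted p = 0.0651) and after quantile normalization (-0.03, adjusted p = 0.492). RPL18AP3, a pseudogene within TXNRD1 on the same strand, had 30.9% as many counts, and its part was not tested.

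Both mitochondrial genes of the system also fell. TXN2 (36467046 to 36481640), the mitochondrial thioredoxin, had 53.01, 59.58 and 55.98 FPKM in the mutant and 66.99, 68.77 and 74.06 in the wild type, and it fell by 0.35 (SE 0.05, adjusted p = 2.46e-05). TXNRD2 (19875517 to 19941820), its reductase, had 3.33, 3.31 and 2.76 FPKM in the mutant and 4.30, 4.49 and 4.20 in the wild type, and it fell by 0.50 (SE 0.08, adjusted p = 4.08e-05). Both genes lie on chromosome 22, and neither overlapped between groups. SRXN1 (chromosome 20), sulfiredoxin, which rescues overoxidised peroxiredoxins, had 43 to 65 counts per mutant library and 56 to 68 per wild-type library. It did not pass (log2 fold change -0.25, 95% interval -0.64 to 0.15).

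**Figure D2:**
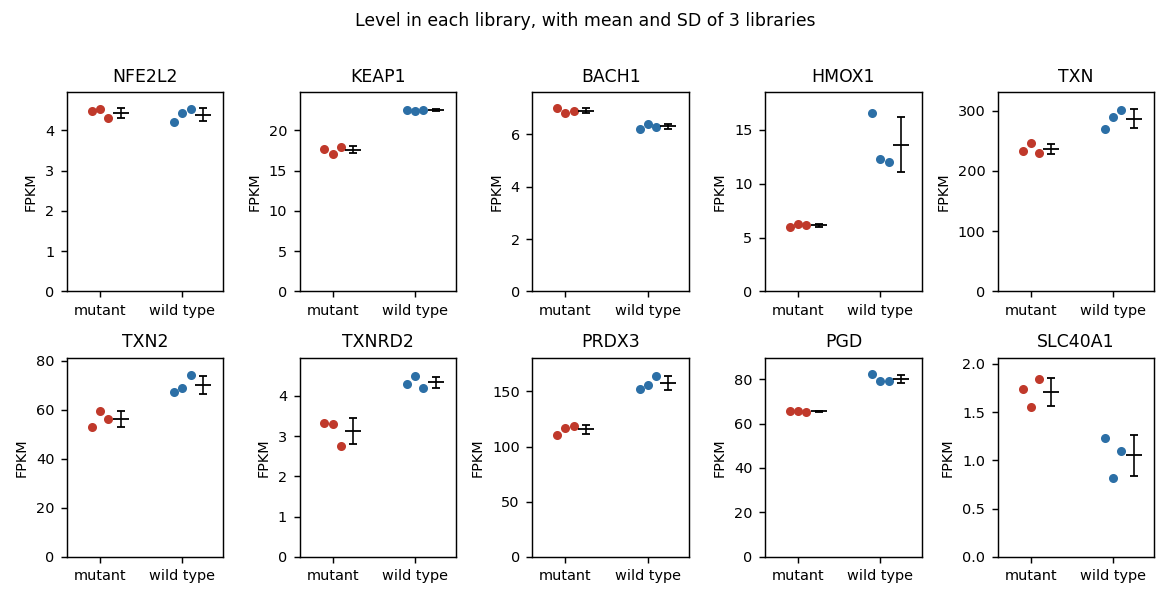
FPKM in each library for NFE2L2, KEAP1, BACH1 and the genes called with a log2 fold change of at least 0.3 in size, with mean and SD (n = 3) beside the points. HMOX1 lies at 5.99 to 6.29 in the mutant and 11.97 to 16.56 in the wild type, and SLC40A1 is the only one of the called genes shown that is higher in the mutant.

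Peroxiredoxins, which reduce hydrogen peroxide with thioredoxin as the usual donor, split by member. Their summed level was 1093 to 1162 FPKM in the mutant and 1193 to 1254 in the wild type. PRDX1 (chromosome 1), the most abundant member and cytosolic, had 390.85, 411.91 and 411.77 FPKM in the mutant and 483.67, 464.05 and 495.82 in the wild type. It fell by 0.28 on the log2 scale (SE 0.04, adjusted p = 7.71e-06). PRDX3 (chromosome 10, 119167720 to 119178812), the mitochondrial member, had 110.70, 116.66 and 119.02 FPKM in the mutant and 152.22, 155.48 and 164.44 in the wild type, and fell by 0.48 (SE 0.04, adjusted p = 3.38e-08). Both were lower in every mutant library than in any wild-type library.

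PRDX5 (chromosome 11), which is found in mitochondria, peroxisomes and cytosol, moved the other way. It averaged 155 ± 8.10 FPKM in the mutant and 132 ± 7.01 in the wild type (SD, n = 3 each), a rise of 0.20 (SE 0.05, adjusted p = 0.00256). PRDX2 (chromosome 19, cytosolic, -0.06), PRDX4 (chromosome X, of the secretory pathway, 0.02) and PRDX6 (chromosome 1, which uses glutathione, -0.05) did not pass, with adjusted p of 0.279, 0.71 and 0.257. The sign for PRDX2 and PRDX4 depended on the scaling or library set. As shares of the summed FPKM, PRDX1 made up 35.9% ± 0.50 in the mutant and 39.3% ± 0.379 in the wild type, PRDX3 10.2% ± 0.260 in the mutant and 12.9% ± 0.361 in the wild type, and PRDX5 13.7% ± 0.322 in the mutant and 10.8% ± 0.558 in the wild type (SD, n = 3 each).

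**Figure D3:**
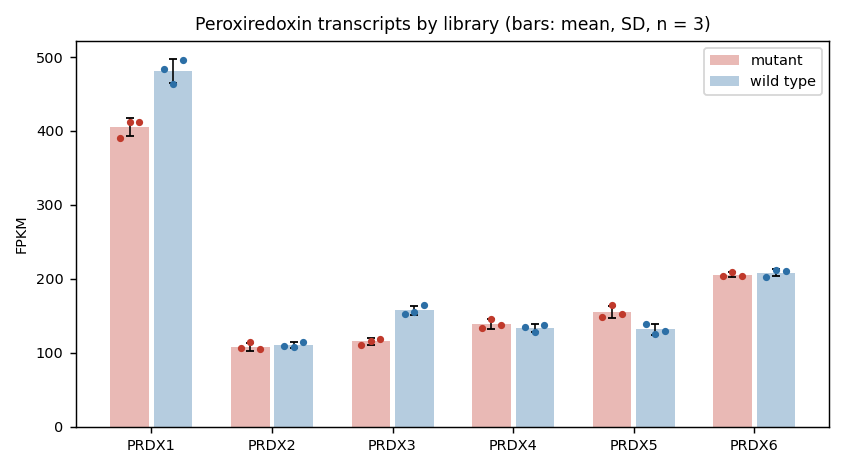
FPKM of the 6 peroxiredoxin transcripts, with bars for the mean, error bars for the SD (n = 3) and points for libraries, mutant left of wild type. PRDX1 and PRDX3 are lower in the mutant, PRDX5 is higher, and PRDX2, PRDX4 and PRDX6 overlap between groups.

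Among the other superoxide and peroxide enzymes, 1 of 5 tested genes rose and 1 fell. Over all tested genes 29.3% were called higher and 28.7% lower, so these counts are not above the background. GPX1 (chromosome 3), the cytosolic glutathione peroxidase and a selenoprotein, had 132.11, 150.02 and 139.00 FPKM in the mutant and 113.52, 103.57 and 119.32 in the wild type. The groups did not overlap, and it rose by 0.29 (SE 0.06, adjusted p = 0.000211). Counts of 2 GPX1 pseudogenes came to 2.75% of the gene's own, the highest share for any of the 36, and adding pseudogene counts to their parents changed no call. On the FPKM scale the ratio of PRDX1 to GPX1 was 2.89 ± 0.124 in the mutant and 4.30 ± 0.166 in the wild type (SD, n = 3 each).

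SOD2 (chromosome 6), the mitochondrial superoxide dismutase, averaged 12.6 ± 0.271 FPKM in the mutant and 13.7 ± 0.699 in the wild type (SD, n = 3 each). It fell by 0.15 (adjusted p = 0.00898), a call lost without wild-type replicate 2 (-0.10, adjusted p = 0.0597) and in limma on log2(FPKM + 1) (adjusted p = 0.0859). WTAP and ACAT2 overlap it on the opposite strand. SOD1 (chromosome 21), the cytosolic dismutase, stood near 120 FPKM in both groups, at 122 ± 8.94 in the mutant and 118 ± 7.29 in the wild type (SD, n = 3 each). Its log2 fold change was 0.01 (95% interval -0.10 to 0.13). CAT (chromosome 11), catalase, at 0.09 (95% interval -0.05 to 0.24), and GPX3 (chromosome 5), the secreted glutathione peroxidase, at 0.06 (95% interval -0.08 to 0.21), did not pass. GPX2 (chromosome 14), known from gut epithelium, had 2 to 4 counts per mutant library and 2 to 7 per wild-type library, and no difference was detectable at that depth.

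The NADPH enzymes diverged between the oxidative and the non-oxidative branch of the pentose phosphate pathway. PGD (chromosome 1, 10398592 to 10420511), which makes NADPH by oxidising 6-phosphogluconate, had 65.54, 65.46 and 65.39 FPKM in the mutant and 82.14, 79.06 and 79.05 in the wild type. The groups were far apart and it fell by 0.32 (SE 0.04, adjusted p = 1.36e-06). TKT (chromosome 3), the transketolase of the non-oxidative branch, averaged 44.2 ± 1.02 FPKM in the mutant and 39.7 ± 1.18 in the wild type (SD, n = 3 each) and rose by 0.12 (adjusted p = 0.0127). The TKT call was lost without mutant replicate 2 (adjusted p = 0.0624) or wild-type replicate 3 (0.07). The FPKM ratio of PGD to TKT was 1.48 ± 0.0348 in the mutant and 2.02 ± 0.0363 in the wild type (SD, n = 3 each). TALDO1 (chromosome 11), transaldolase, changed by 0.05 (adjusted p = 0.274) and ME1 (chromosome 6), the cytosolic malic enzyme, by 0.08 (adjusted p = 0.284).

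Of the 4 iron genes, SLC40A1 rose and the others did not pass, where 29.3% of all tested genes were called higher. SLC40A1 (chromosome 2, 189560590 to 189583758) encodes ferroportin, the cellular iron exporter, and had 1.74, 1.55 and 1.84 FPKM in the mutant and 1.23, 0.82 and 1.10 in the wild type. These are low levels, from 110 to 149 counts per mutant library and 58 to 93 per wild-type library, without overlap. The log2 fold change was 0.67 (SE 0.16, 95% interval 0.33 to 1.01, adjusted p = 0.0017), and in limma 0.67 on log2(FPKM + 0.1), 0.52 on log2(FPKM + 0.5) and 0.41 on log2(FPKM + 1). With quantile normalization it was 0.25; the cause of that further difference was not tested.

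TFRC (chromosome 3), the transferrin receptor, had 17.21, 16.62 and 17.42 FPKM in the mutant and 12.24, 17.36 and 15.42 in the wild type. Wild-type replicate 2 reached the mutant range, and the log2 fold change was 0.15 (adjusted p = 0.112). It was 0.28 and called without wild-type replicate 2 (adjusted p = 0.00196) and 0.02 without wild-type replicate 1 (adjusted p = 0.693). The ferritin chains overlapped between groups. FTH1 (chromosome 11), the heavy chain, averaged 140 ± 6.38 FPKM in the mutant and 130 ± 8.88 in the wild type (SD, n = 3 each), with a log2 fold change of 0.07 (95% interval -0.03 to 0.17). FTL (chromosome 19), the light chain, averaged 344 ± 16.5 FPKM in the mutant and 343 ± 24.9 in the wild type (SD, n = 3 each), with a log2 fold change of -0.03 (95% interval -0.13 to 0.08). SLC40A1 and FTL both carry the hairpin shown above at the 5′ end, and TFRC carries its matches at the 3′ end.

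The median change differed between chromosomes, and within some of them between regions, so each gene was set beside its neighbours. The median log2 fold change of tested genes was -0.36 on chromosome 10, 0.29 on 16, -0.13 on 20 and -0.16 on 22. Of the 33 tested genes, 7 lie on these chromosomes, of which 5 were called. Of the 26 on other chromosomes 13 were called, where 58.1% of all tested genes were called. Over all tested genes, 8.94% were called higher and 65.0% lower on chromosome 10, 62.6% higher and 5.71% lower on 16, 23.4% higher and 43.8% lower on 20, and 16.5% higher and 41.7% lower on 22, so the 5 of 7 are near the background of these chromosomes. HMOX1 lay 0.97 below the median of its 24 nearest tested genes (-0.21), TXNRD2 0.30 below (-0.19), TXN2 0.30 below (-0.05) and PRDX3 0.23 below (-0.25). HMOX2 lay at its neighbours' median (0.15). NQO1, which did not differ between groups, sat among 24 genes of which 20 were called higher (median 0.34). SRXN1 sat among neighbours with a median of -0.53, whereas the neighbours of the glutathione gene GSS, also on chromosome 20, had a median of -0.003. On the other chromosomes, KEAP1, TXN, PRDX1, PGD, TXNRD1 and SOD2 fell while their neighbours' medians were 0.004, 0.10, 0.06, 0.01, 0.11 and -0.02. NFE2L1, MAFG, PRDX5, GPX1, TKT, NQO2 and SLC40A1 rose, beside medians of -0.17, -0.15, -0.12, -0.08, -0.05, 0.03 and 0.16. These differences are descriptions with no test, and the part of gene dosage in the levels was not tested.

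The other genes of the same pathways went both ways. Of 83 further genes, 67 were tested; 19 were called higher and 28 lower, or 22 and 19 with library totals as the scaling, and 21 and 21 after quantile normalization. The called share was 70.1%, against 58.1% of all tested genes, of which 29.3% were higher and 28.7% lower; the counts by class below stand against the same shares. Among 7 further regulators 1 rose and 5 fell: SQSTM1, the autophagy adaptor that sequesters KEAP1, by 0.76, with 7.88 FPKM in the mutant and 13.1 in the wild type, BTRC (on chromosome 10) by 0.48 and CUL3 by 0.22, while NFE2L3 rose by 0.45. Among 7 glutathione genes 2 rose and 3 fell (3 and 2 with library totals). SLC7A11, the cystine carrier, rose by 2.06, whereas GCLM, the modifier subunit of glutamate-cysteine ligase, fell by 0.87 to 6.64 FPKM in the mutant, against 11.9 in the wild type. The catalytic subunit GCLC fell by 0.17 and GSS rose by 0.38.

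Among 12 further thioredoxin and glutaredoxin genes 4 rose and 7 fell (4 and 4 with library totals). SESN2, a sestrin, rose by 0.77, whereas GLRX3 (on chromosome 10) fell by 0.72, TXNIP, the thioredoxin inhibitor, by 0.71 and TXNL1 by 0.59. GLRX (0.93), a glutaredoxin, and TXNRD3 (0.91), a thioredoxin reductase, had the largest rises of the 12 and are named here after their values were seen. Among 10 further NADPH genes 5 rose and 1 fell, led by H6PD (1.15), which feeds NADPH to the endoplasmic reticulum, mitochondrial IDH2 (1.09), RPE (0.43) and NADK (0.36). Of 12 haem, quinone and conjugation genes 4 rose and 1 fell, with ABCC1 at 0.61 (on chromosome 16), BLVRB at 0.50, FECH at 0.32 and AKR1B1 at 0.29. Of 3 further genes of the superoxide and peroxide class, GPX8, a peroxidase of the endoplasmic reticulum, rose by 0.46, while CCS (0.20), the copper chaperone of SOD1, and GPX4 (-0.06), which reduces lipid peroxides, did not pass.

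Of 16 iron genes outside the 4 named above, 2 rose and 11 fell, with a median of -0.20, where 29.3% of all tested genes were called higher and 28.7% lower. The counts were 2 and 9 with library totals and 2 and 8 in limma on log2(FPKM + 1). Without chromosomes 10, 16, 20 and 22, 2 of 12 were called higher and 7 lower, with a median of -0.14. NCOA4, the ferritin autophagy receptor, fell by 0.49 and CISD1, an iron-sulfur protein of the mitochondrial outer membrane, by 0.56, both on chromosome 10, where such falls were frequent. STEAP3, an endosomal ferrireductase, fell by 0.58 on chromosome 2. SLC11A2, the divalent metal importer that moves iron out of endosomes, rose by 0.49. The plot of calls by class shows these counts.

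**Figure D4:**
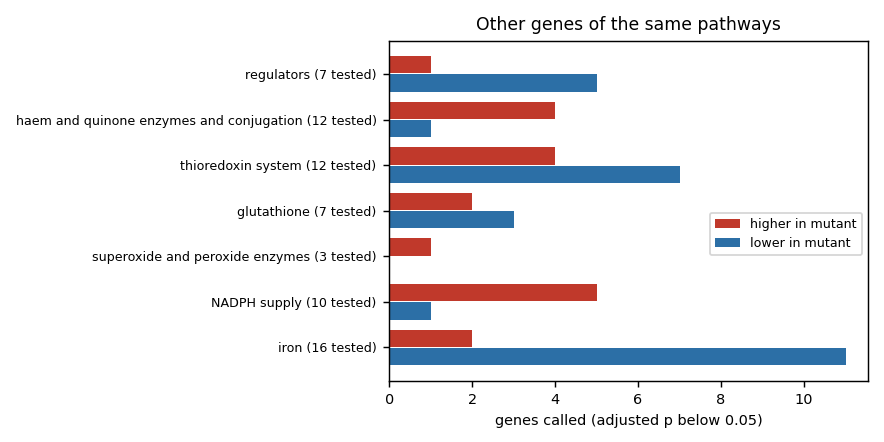
Number of further pathway genes called higher or lower in the mutant (adjusted p below 0.05), by class, with the number tested in brackets. Iron genes show 2 higher and 11 lower, NADPH genes 5 higher and 1 lower.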

How the data were processed

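Poly(A) RNA-seq of 6 HEK293 libraries was analysed from 1 table. Per the file headers, it holds raw counts and FPKM per gene for each library. The authors used cutadapt, HISAT2 2.0.1 and HTSeq on GRCh38, per the submitters' processing notes. The annotation release and strand setting were not given in the sources used here. From the values, the deposited FPKM are the authors' counts scaled to exon length and to the library's assigned total.

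Counts were scaled by TMM and compared by edgeR 4.0.16 (R 4.3.3) using its quasi-likelihood test, two-sided, with genotype as the only factor. The 12550 genes averaging 1 FPKM or more were tested, and p-values were adjusted by Benjamini-Hochberg over all of them. Genes under the minimum were read from the same fit without a minimum. Intervals are 95% from the fit. The test was checked on simulated counts with 200 changed genes. In the data 58.1% of tested genes were called, so that check does not cover so broad a change. No 2 libraries were duplicates (chi-square per degree of freedom at least 2.49). Alternatives used limma 3.58.1, DESeq2 1.42.0, other scalings and filters, leaving out single libraries, and a block for the replicate number.

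Every one of the 36 genes is named; library values are given for NFE2L2, KEAP1, BACH1 and genes called with a log2 fold change of at least 0.3 in size, and for PRDX1, GPX1, NQO1 and TFRC, which were added after their values were seen. Of the further genes, up to 4 per class with the smallest adjusted p are named. Members and lists were chosen with earlier results of these data known. Coordinates of genes are those of the table's build. Promoter windows are from RefSeq (GRCh38.p14) and hairpins from GENCODE 29.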

Additional observations from a re-analysis of the deposited data

How the results depend on the processing

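Of 582 values of the 33 tested genes under the alternatives, 511 kept their direction and side of the threshold, and 15 genes did so throughout, among them HMOX1 (-1.27 to -1.02), KEAP1 (-0.43 to -0.32), PRDX1 (-0.32 to -0.20), PRDX3 (-0.52 to -0.39), PGD (-0.36 to -0.22), TXN, TXN2, TXNRD2, GPX1 and SLC40A1. The other calls that were lost at some setting were those of HMOX2, MAFG, TXNRD1, SOD2, TKT and NQO2, while BACH1, TFRC, TALDO1, FTH1, PRDX4 and SRXN1 were called at some setting. The sign changed for 7 genes that were not called in either case. With library totals the values were 0.02 for NFE2L2, 0.0025 for NQO1 and 0.0048 for FTL. In limma on log2(FPKM + 1), log2(FPKM + 0.5) and log2(FPKM + 0.1) they were 0.014, 0.016 and 0.017 for NFE2L2, 0.0044, 0.0054 and 0.0066 for NQO1 and 0.0069 in each case for FTL. After quantile normalization PRDX2 was 0.056 and FTL 0.015. Without an expression minimum PRDX4 was -0.016 and SOD1 -0.025, and with a minimum of 5 FPKM FTL was 0.018. With 1 library left out, the range was -0.046 to 0.0074 for NFE2L2, -0.095 to 0.010 for NQO1, -0.078 to 0.019 for FTL, -0.019 to 0.054 for PRDX4, -0.050 to 0.058 for SOD1 and -0.0012 to 0.11 for GPX3. The cause was not tested.

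With a minimum of 5 FPKM, where fewer genes are tested, 2285 genes were called higher and 2315 lower, and 18 of the further pathway genes were called lower, as in each of the 3 limma fits on log2 FPKM without quantile normalization. Without chromosomes 10, 16, 20 and 22, which removes members, 6 of the members were called lower. The replicate numbers do not pair the libraries (correlations of same-numbered deviations of 0.018, -0.059 and -0.048, and no library matched its own number best). With a replicate block, 7 members were called higher and 10 lower, and HMOX2 was not called (0.13, adjusted p = 0.0681). Depth limits MAFF, OSGIN1 and GPX2.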
